A study of Mus musculus with 8 samples.

Results

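Cones are the photoreceptors of daylight and colour vision, and 8 genes of their light response were followed here in mouse eyes: the opsins Opn1mw and Opn1sw, the arrestin Arr3, the transducin subunits Gnat2 and Gngt2, the phosphodiesterase subunits Pde6c and Pde6h, and the channel subunit Cnga3. Members were the probe sets that the platform annotation gives to one of these symbols and no other. This gave 9 of the 22690 probe sets, for 6 of the 8 genes, and all 9 passed the filter on low signals. The filter cut the mean scaled signal over the 8 arrays at 0.0406. Opn1mw, Pde6c, the dimmer Opn1sw probe set and the second Arr3 probe set lay below that on every 5-day array. They passed only through their 1-month signals. Gngt2 and Cnga3 were matched to no probe set and are not analysed here. RNA from the eye was measured on 8 arrays, 2 for each of 4 groups, numbered I and II in the titles: wild type at 5 days (given as C57Bl6), KPAW at 5 days, wild type at 1 month and KPAW at 1 month. The labels do not expand KPAW, give no strain for the other groups and do not state whether separate animals were used within a group. Each p-value therefore rests on array-to-array differences alone. In KPAW at 5 days the 2 arrays were not repeats of 1 RNA sample, as Xist below shows. In the other groups these differences may be technical in whole or in part, which was not tested. With 2 arrays in a group, their number limits the precision.

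When light isomerizes the chromophore of an opsin, the opsin activates the G protein transducin, transducin relieves the inhibitory phosphodiesterase subunit from the catalytic one, cyclic GMP falls and the cyclic nucleotide-gated channel closes. Arrestin ends the signal by binding the phosphorylated opsin. Rods run the same chain with their own gene for most steps, so nearly every cone gene here has a rod counterpart. In the mouse, cones are a small minority of the photoreceptors, and most of them carry both opsins in amounts that vary from the dorsal to the ventral retina. The short-wavelength opsin is made before the medium-wavelength opsin in development.

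The stretches of 250 bases before the start sites of Opn1sw, Opn1mw and Gnat2 are shown because the data below turn on how differently these genes moved with age and in KPAW (RefSeq, GRCm38.p6, 5′ to 3′). Capitals mark TAATC or its reverse complement GATTA, the core of sites read by the photoreceptor factors Crx and Otx2.
Opn1sw (chr6:29380514-29380763, minus strand): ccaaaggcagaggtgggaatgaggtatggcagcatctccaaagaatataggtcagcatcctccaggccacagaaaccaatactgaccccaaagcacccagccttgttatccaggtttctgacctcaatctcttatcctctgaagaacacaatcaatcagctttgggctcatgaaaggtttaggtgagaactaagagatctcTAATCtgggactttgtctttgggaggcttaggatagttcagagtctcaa
Opn1mw (chrX:74127216-74127465, plus strand): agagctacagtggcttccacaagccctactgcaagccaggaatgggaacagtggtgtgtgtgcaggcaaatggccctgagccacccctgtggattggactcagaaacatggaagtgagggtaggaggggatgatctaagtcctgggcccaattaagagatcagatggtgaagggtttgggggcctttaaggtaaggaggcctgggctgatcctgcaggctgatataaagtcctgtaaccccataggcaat
Gnat2 (chr3:108092816-108093065, plus strand): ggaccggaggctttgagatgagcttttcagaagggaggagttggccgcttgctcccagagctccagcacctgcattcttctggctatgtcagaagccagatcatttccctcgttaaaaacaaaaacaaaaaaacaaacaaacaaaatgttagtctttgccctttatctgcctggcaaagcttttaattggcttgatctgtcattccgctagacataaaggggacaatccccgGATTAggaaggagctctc
The table of start sites held windows for 6 of the 8 genes, 7 windows in all because Cnga3 has 2. The motif TAATCC, searched on both strands, was in 1 of the 7, that of Gnat2, against 6.25% of all 32851 windows of this length. The shorter TAATC, which every TAATCC contains, was added after the sequences were seen, so its count is no test. It was in 3 of the 7, against 19.8% of all windows. These were the windows of Opn1sw (at position -49 from the start), Gnat2 (at -18) and Arr3 (at -116, -102 and -10). The windows of Opn1mw, Pde6h and Cnga3 held neither. A match in these letters is a description of the sequence and not a binding site.

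Signals below are in arbitrary units, scaled so that all arrays have one trimmed mean, and a probe set is said to have passed, risen or fallen only at an adjusted p under 0.05 over the whole table. Several features of the arrays bear on all results. Between KPAW I and KPAW II at 1 month, 3.63% of the tested probe sets were more than 2-fold apart. This share was 1.05% between the wild-type arrays of that age. At 5 days it was 2.76% between the KPAW arrays and 1.41% between the wild-type arrays. Xist, the RNA of the inactive X chromosome, read 2.95 and 3.64 (scaled signal) on both wild-type arrays of 5 days and 3.13 on KPAW II of 5 days, but at most 0.0861 on the other 5 arrays. Eif2s3y, a gene of the Y chromosome, was at the lowest listed value on those 3 arrays and between 0.0923 and 0.149 on the other 5. The age comparison in wild type is thus also one between arrays with and without Xist. The KPAW arrays of 5 days were split in both genes, so they were not repeats of 1 RNA sample. The 5-day, KPAW age and interaction comparisons thus carry the same difference in part. Its part in the results was not tested, and Opn1mw and Arr3 lie on the X chromosome. The 13 of 15 listed rod genes on the array summed to a scaled signal of 35.2 and 46.5 in wild type at 1 month, 38.3 in KPAW II and 2.42 in KPAW I. Of these sums Gnb1 alone gave 1.31 and 5.84 in wild type, 1.66 in KPAW II and 1.53 in KPAW I. Most of the KPAW I sum was thus Gnb1. The 5 epidermis markers, all measured, summed to 0.278 and 0.299 in wild type, 5.76 in KPAW II and 14.0 in KPAW I at that age. At 5 days they summed to 3.94 and 0.321 in wild type I and II and to 2.74 and 0.257 in KPAW I and II, so both arrays I of that age were also high, and the part of this in the age comparisons was not tested. In RNA from the eye, fewer cones and less RNA per cone cannot be told apart.

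From 5 days to 1 month the medium-wavelength opsin gene came up from the lowest listed value, and cone arrestin, transducin and the inhibitory phosphodiesterase subunit rose with it in wild-type eyes. Opn1mw, the opsin for medium wavelengths, was listed at the lowest value on all 4 arrays of 5 days, wild type and KPAW. At 1 month its scaled signal was 0.402 and 0.524 in the 2 wild-type arrays. The log2 fold change in wild type was 3.87 (SE 0.23, limma adjusted p = 0.000172), a size that depends on the floor and on the pseudocount of 0.0211 added before taking logs. Opn1mw passed the filter only through its 1-month signals, so a rise was favoured in advance of this test.

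Opn1sw, the opsin for short wavelengths, was already measured at 5 days. Its brighter probe set gave a scaled signal of 0.590 and 0.657 in wild type at 5 days and 1.56 and 1.45 at 1 month, a ratio of the means of 2.41. Both 1-month arrays lay above both 5-day arrays, but the log2 fold change of 1.24 (SE 0.61) did not pass (limma adjusted p = 0.199). The model shares 1 spread per probe set over all 4 groups, and for Opn1sw that spread includes the gap between the 1-month KPAW arrays. With the wild-type groups alone the same Opn1sw difference of 1.24 passed (limma adjusted p = 0.00135). A dimmer Opn1sw probe set rose by 0.95 (SE 0.27, limma adjusted p = 0.0451), but lost that call with other scalings (adjusted p = 0.0604 and 0.0517) and without any one of 6 arrays. It also passed the filter only through 1 month.

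Arr3, the arrestin of cones, was 0.0334 and 0.0430 in wild type at 5 days and 0.473 and 0.529 at 1 month on its brighter probe set. It rose by 3.14 (SE 0.35, limma adjusted p = 0.00140), and its second probe set rose by 2.49 (SE 0.34, adjusted p = 0.00312). That second probe set passed the filter only through 1 month. Gnat2, the alpha subunit of cone transducin, went from 0.321 and 0.376 to 1.04 and 1.13. It rose by 1.58 (SE 0.30, limma adjusted p = 0.0116), without overlap between the ages. That call was lost when any of the 4 wild-type arrays was left out (adjusted p between 0.0531 and 0.0761).

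Pde6h, the inhibitory subunit of the cone phosphodiesterase, went from 0.212 and 0.165 to 0.667 and 0.854 on its brighter probe set. It rose by 1.90 (SE 0.30, limma adjusted p = 0.00588), and the second probe set by 2.10 (SE 0.25, adjusted p = 0.00203). Pde6c, the catalytic subunit, was low and uneven: 0.0276 and 0.0312 at 5 days, then 0.157 in wild type I and 0.0434 in wild type II at 1 month. Its difference of 1.09 (SE 0.42) did not pass (limma adjusted p = 0.114), and it did without wild type II of 1 month (1.82, adjusted p = 0.0178).

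In all, 4 of the 6 genes and 7 of the 9 probe sets rose with age in wild type and none fell, where 8.73% of the 15838 probe sets tested were called higher and 9.33% lower. That split depends on the scaling: 48.3% of all calls were higher here, 37.4% with median scaling and 90.8% on the values as deposited, where the median of all probe sets shifted by 0.44. All 9 probe sets had both 1-month arrays above both 5-day arrays, as 32.5% of the tested probe sets did. The median log2 fold change of the 6 genes was 1.74, beside -0.01 over the 9492 genes tested. These counts and this median include the probe sets that passed the filter only through 1 month, where a rise was favoured in advance.

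**Figure D1:**
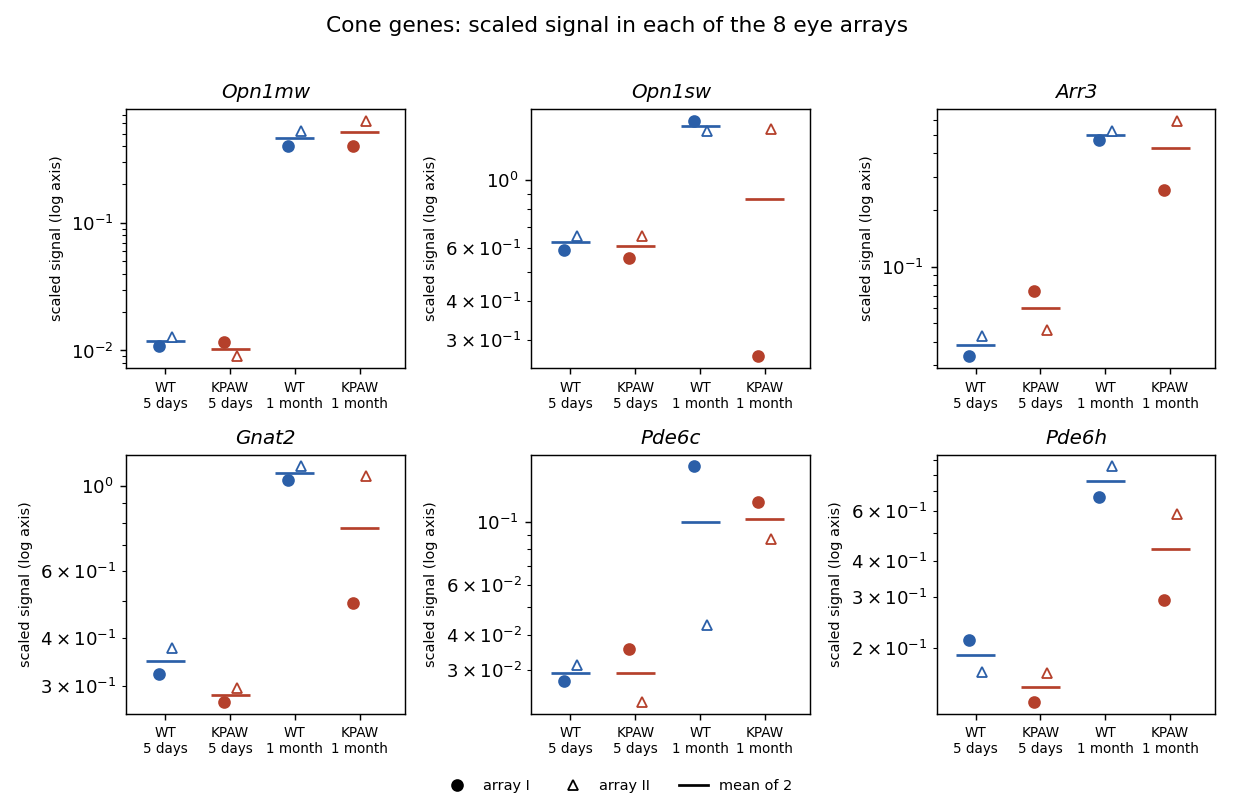
Scaled signal of the 6 measured cone genes on a log axis, in arbitrary units, for each of the 8 arrays (brightest probe set per gene; filled circles are arrays I, open triangles arrays II, bars the mean of the 2). All 6 genes lie higher at 1 month than at 5 days in wild type, as 32.5% of the tested probe sets do. In 5 of the 6 KPAW I at 1 month lies below both wild-type arrays of its age, as in 37.1% of all genes tested. Pde6c is the exception, and Opn1mw lies only just below (0.399 against 0.402).

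The same age comparison in KPAW asks whether cone genes came up there too. At 1 month Opn1mw stood at 0.399 (KPAW I) and 0.628 (KPAW II), where wild type had 0.402 and 0.524. It rose from the lowest listed value by 4.06 (SE 0.23, limma adjusted p = 0.000146). The filter favoured this rise in advance, as in wild type, and also that of the second Arr3 probe set. Arr3 rose from 0.0743 and 0.0463 at 5 days to 0.256 and 0.596 at 1 month in KPAW I and II in turn, by 2.37 (SE 0.35, adjusted p = 0.00529), and its second probe set rose by 2.65 (adjusted p = 0.00330). Gnat2 went from 0.272 and 0.295 to 0.494 and 1.06 and rose by 1.29 (SE 0.30, limma adjusted p = 0.0276). Pde6h went from 0.130 and 0.163 to 0.294 and 0.585 and rose by 1.39 (SE 0.30, adjusted p = 0.0219). For these 3 genes both 1-month arrays lay above both 5-day arrays, with KPAW I between the 5-day arrays and KPAW II. Pde6c went from 0.0356 and 0.0232 to 0.117 and 0.0874 without overlap. Its difference of 1.29 (SE 0.42) did not pass (limma adjusted p = 0.0804), and it did without wild type I or II of 1 month (adjusted p = 0.0205 and 0.0187).

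Opn1sw went 2 ways between the KPAW arrays of 1 month. Its signal was 0.557 and 0.657 at 5 days. At 1 month it was 0.265 in KPAW I, below both 5-day arrays, while KPAW II had 1.47, between the wild-type values of 1.45 and 1.56. The 2 together differed from 5 days by 0.06 (SE 0.61, limma adjusted p = 0.960). With KPAW II as the only 1-month KPAW array Opn1sw rose by 1.25 (adjusted p = 0.00456, where 5.78% of all probe sets were called higher). With KPAW I as the only array it fell by 1.13 (adjusted p = 0.00726, where 7.13% were called lower). In these fits the lone array is assumed to vary like the other groups. The dimmer Opn1sw probe set differed by 0.88 (limma adjusted p = 0.0666) over both arrays and by 1.24 without KPAW I.

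Over both arrays, 4 of the 6 genes and 6 of the 9 probe sets rose with age in KPAW, where 6.76% of all probe sets were called higher and 7.51% lower. On the values as deposited 65% of all calls were higher, against 47.4% here. In 8 of the 9 the ages did not overlap, with KPAW higher at 1 month, as in 25.3% of all probe sets. Here too the counts include the probe sets that passed the filter only through 1 month. The calls of Gnat2 and Pde6h were lost with the KPAW groups alone (adjusted p = 0.103 and 0.0809) and without either KPAW array of 5 days (adjusted p between 0.0711 and 0.107). That of Gnat2 was also lost without either wild-type array of 1 month (adjusted p = 0.0526 and 0.0527).

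**Figure D2:**
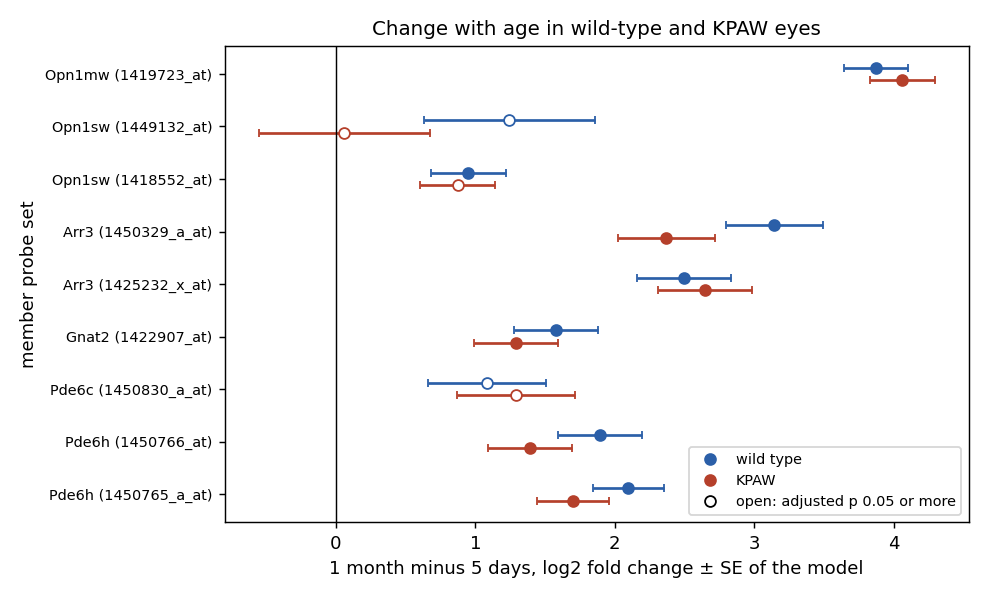
Log2 fold change from 5 days to 1 month, with the standard error of the model, for the 9 member probe sets in wild type (blue) and KPAW (red). Open points did not pass at an adjusted p under 0.05: both Pde6c points, both points of the brighter Opn1sw probe set and the KPAW point of the dimmer one.

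Between KPAW and wild type at 1 month, the 2 KPAW arrays gave different values. On KPAW II the 6 genes stood at 77.0% (Pde6h) to 136% (Opn1mw) of the wild-type mean. On KPAW I Opn1mw was at 86.3% and Pde6c at 117%, but Opn1sw was at 17.6%, Pde6h at 38.7%, Gnat2 at 45.7% and Arr3 at 51.1%. Over both arrays no member passed, where 0.0253% of all probe sets did (4 of 15838) and 1100 probe sets had an unadjusted p under 0.05. The 2 Pde6h probe sets alone had both KPAW arrays below both wild-type arrays, as 19.6% of all probe sets did.

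Opn1mw, at 0.399 and 0.628 in KPAW I and II against 0.402 and 0.524 in wild type, differed by 0.12 (SE 0.23, limma adjusted p = 0.904). KPAW I lay just below both wild-type arrays and KPAW II above both, so the groups overlapped. This small difference turned its sign on the values as deposited (-0.15), where the median of all probe sets was at -0.26.

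The Opn1sw signals of 0.265 and 1.47, in KPAW I and II in turn, compare with 1.56 and 1.45 in wild type. KPAW I lay far below the other 3 arrays, and KPAW II was at 97.8% of the wild-type mean. The difference over both arrays was -1.22 (SE 0.61, limma adjusted p = 0.675). For KPAW I as the only KPAW array it was -2.41, from 1 array whose own spread is not known. The dimmer probe set read 0.0336 and 0.0694 in KPAW I and II against 0.0758 and 0.0678, and for KPAW I alone differed by -0.76.

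Gnat2, at 1.04 and 1.13 in wild type, was 0.494 in KPAW I, below both, while KPAW II lay between them at 1.06. It differed by -0.56 (SE 0.30, limma adjusted p = 0.675) over both arrays and by -1.10 for KPAW I alone. Pde6h was 0.294 and 0.585 against 0.667 and 0.854, and so was lower in both KPAW arrays. Its difference was -0.83 (SE 0.30, limma adjusted p = 0.675) over both and -1.30 for KPAW I alone, and its second probe set gave -0.64 and -1.02.

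Arr3 was 0.256 and 0.596 against 0.473 and 0.529, with KPAW I below and KPAW II above both wild-type arrays. The difference of -0.33 (SE 0.35, limma adjusted p = 0.798) over both arrays did not pass, and that for KPAW I alone was -0.91. Pde6c was 0.117 and 0.0874 in KPAW I and II, between the uneven wild-type values of 0.157 and 0.0434, and differed by 0.19 (SE 0.42, limma adjusted p = 0.918).

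With KPAW I as the only 1-month KPAW array, 3 of the 6 genes fell (Opn1sw, Gnat2 and Pde6h), where 2.64% of all probe sets were called lower. KPAW I lay below both wild-type arrays in 8 of the 9 probe sets, as it did in 38.6% of all. With KPAW II as the only array the differences of Opn1sw, Gnat2 and Pde6h were -0.03, -0.03 and -0.36. KPAW II lay below both wild-type arrays in 2 of the 9 and above both in 3, against 34% and 28.5% of all probe sets.

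**Figure D3:**
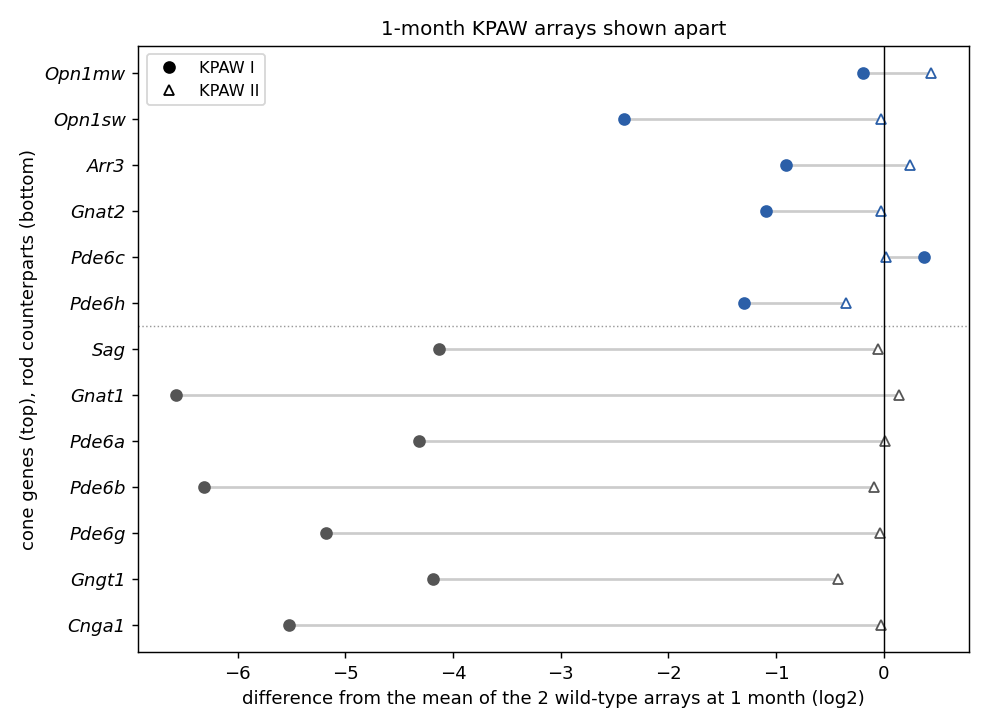
Difference of each 1-month KPAW array from the mean of the 2 wild-type arrays of that age, in log2 of the scaled signal plus pseudocount, for the 6 measured cone genes (blue, top) and 7 rod counterparts (grey, bottom). In KPAW I (filled circles) the cone genes lie between -2.41 and 0.37 and the rod genes between -6.57 and -4.13, and in KPAW II (open triangles) all 13 lie between -0.43 and 0.43.

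The rod counterparts of these genes were much lower in the same array. Gnat1, the rod transducin, had 5.99 and 7.09 in wild type, 7.18 in KPAW II and 0.0478 in KPAW I, or 0.731% of the wild-type mean where cone Gnat2 was at 45.7%. Sag, the rod arrestin, was at 5.35% where Arr3 was at 51.1%. Pde6g, the rod inhibitory phosphodiesterase subunit, was at 2.37% where Pde6h was at 38.7%. The rod catalytic subunits Pde6a and Pde6b and the rod channel Cnga1 were at the lowest listed value in KPAW I, and Gngt1, the rod gamma subunit, was at 4.25%.

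All 7 rod counterparts were lower with KPAW I as the only KPAW array, by a median log2 fold change of -5.18. None of them passed over both arrays. In KPAW II they stood at 73.8% (Gngt1) to 110% (Gnat1) of the wild-type mean. The median over the 6 cone genes was -1.004 in KPAW I, beside 0.02 over all genes tested, and in KPAW II both medians rounded to -0.00. The gap between cone and rod genes within KPAW I is a description of 1 array, with no test. It was accompanied there by the high epidermis markers given above, whose part in it was not tested.

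Around the members, other genes of cones and of the photoreceptor were followed in lists. Of 6 further cone-enriched genes, 3 were tested. Gnb3, a G protein beta subunit of cones and ON bipolar cells, was 0.430 and 0.574 in KPAW I and II against 0.657 and 0.537 in wild type at 1 month. Cngb3, the partner of Cnga3 in the cone channel, was 0.0313 and 0.0320 against 0.114 and 0.0549, lower in both arrays by -0.94 (SE 0.28, limma adjusted p = 0.643). Thrb, the thyroid hormone receptor needed for Opn1mw, was 0.0840 and 0.102 against 0.133 and 0.103. None of the 3 passed in any of the 4 comparisons of groups. Rxrg and Sall3 lay below the filter, and Slc24a2 was matched to no probe set.

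Many genes that rods and cones share were low in KPAW I. Of 9 tested genes of shared transduction, 8 lay below both wild-type arrays in KPAW I, as 37.1% of all genes tested did. The list median was -2.58, beside 0.02 over all genes tested. Guca1a, an activator of guanylate cyclase, differed by -3.27 in KPAW I, and Rcvrn, the calcium sensor recoverin, by -4.32. Outer segment, cilium and matrix genes lay below both wild-type arrays in 11 of 11, with a median of -2.55. Rp1, a microtubule protein of the outer segment, was at the lowest listed value in KPAW I. Over both KPAW arrays none of these passed.

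Chromophore supply genes lay below both wild-type arrays in KPAW I in 8 of 9, with a median of -0.42. That median joins unlike genes. Rdh12 differed by -3.68 and Rbp3, a retinoid-binding protein, by -2.66, while the others lay between -0.56 (Rgr) and 0.47 (Ttr). Rpe65, the isomerase of the pigment epithelium, had 1.22 and 1.58 on KPAW I and II against a wild-type mean of 1.73. With age it rose by 3.66 in wild type (limma adjusted p = 0.000140) and by 3.60 in KPAW (adjusted p = 0.000146). Regulators of photoreceptor and opsin genes lay below both wild-type arrays in KPAW I in 8 of 11, with a median of -1.05. Crx, the factor shared by rods and cones, had 0.144 on KPAW I, 1.24 on KPAW II and 1.31 and 1.30 in wild type, and Nrl, which sets rod fate, was 0.0243 and 4.20 against a wild-type mean of 4.31. Synapse genes of photoreceptors did so in 7 of 7, with a median of -0.68.

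Of 8 genes of bipolar cells, which receive the signal of photoreceptors, 1 lay below both wild-type arrays in KPAW I, at a list median of 0.30. Cabp5, a calcium-binding protein of cone bipolar cells, was 0.708 and 0.485 against a wild-type mean of 0.483. With age in wild type 3 of the 8 bipolar genes rose and 1 fell, where 8.73% of all probe sets were called higher and 9.33% lower. Cabp5 rose by 2.26 (limma adjusted p = 0.000548). Trpm1, a channel of ON bipolar cells, went from 0.683 and 0.730 to 0.354 and 0.331 and fell (limma adjusted p = 0.0180). In RNA from the eye the arrays do not show which cells gave the Trpm1 signal. Sums over the marker lists of other cells in KPAW I, KPAW II and the 2 wild-type arrays were 8.81, 7.48, 6.51 and 7.97 for Mueller glia (7 of 7 genes measured), 7.49, 7.79, 7.28 and 6.91 for pigment epithelium (6 of 7), 49.5, 47.9, 37.5 and 47.2 for lens (7 of 7), 2.80, 2.71, 3.18 and 2.99 for ganglion cells (6 of 8), 3.56, 3.42, 3.67 and 3.47 for amacrine and horizontal cells (7 of 7), 6.68, 13.0, 17.9 and 20.3 for cornea (6 of 6) and 1.57, 1.09, 1.72 and 1.24 for muscle (5 of 5). The pigment epithelium sum joins genes that differed in direction. In KPAW I they stood at 67.3% (Rgr), 68.7% (Lrat), 70.6% (Rpe65), 97.5% (Rdh5), 148% (Tyrp1) and 148% (Pmel) of the wild-type mean. Pineal markers, which share genes with photoreceptors, summed to at most 0.104 on any array (2 of 3).

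**Figure D4:**
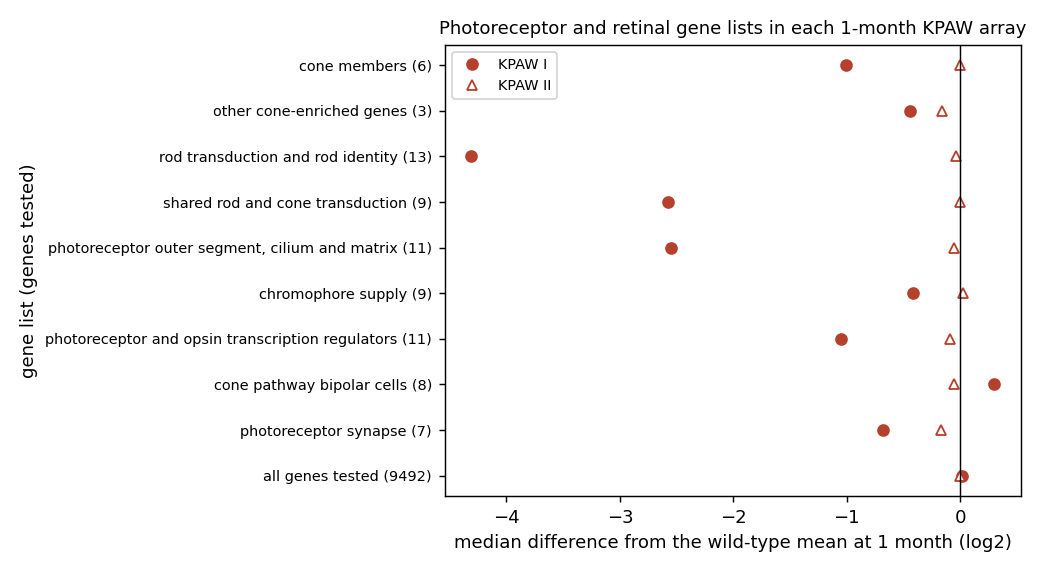
Median difference from the wild-type mean at 1 month (log2) of the cone genes, the 8 pathway lists and all genes tested, without the marker lists of other cells, in KPAW I (filled circles) and KPAW II (open triangles), with the number of genes tested in brackets. Rod genes stand lowest in KPAW I (-4.31), the 6 cone genes at -1.004, bipolar genes at 0.30 and all genes tested at 0.02, while the medians plotted for KPAW II lie between -0.17 and 0.02.

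At 5 days no member passed between KPAW and wild type. No probe set of the whole table did in limma (0 of 15838), and 378 had an unadjusted p under 0.05. Arr3 was 0.0743 and 0.0463 in KPAW I and II against 0.0334 and 0.0430 in wild type, higher in both, by 0.44 (SE 0.35, limma adjusted p = 1.00). Gnat2 was 0.272 and 0.295 against 0.321 and 0.376, lower in both, by -0.28 (SE 0.30). Pde6h was 0.130 and 0.163 against 0.212 and 0.165, also lower in both, by -0.32 (SE 0.30). The second Arr3 probe set differed the other way, by -0.12, with overlap. The second Pde6h probe set differed by -0.24, also with overlap. Of the 9 probe sets, 1 was higher and 3 were lower without overlap, where 16.8% and 16.6% of all probe sets were.

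The change in the KPAW difference between the ages was tested as an interaction. It was -1.18 for Opn1sw (SE 0.87, limma adjusted p = 0.816), -0.77 for Arr3 (SE 0.49, adjusted p = 0.813), -0.50 for Pde6h, -0.29 for Gnat2, 0.19 for Opn1mw and 0.20 for Pde6c, and none passed, as no probe set of the table did (932 had an unadjusted p under 0.05). With KPAW I as the only 1-month KPAW array the Opn1sw interaction was -2.37 (SE 0.21, limma adjusted p = 0.00190, where 1.93% of all probe sets were called), and that of Opn1mw -0.12 (adjusted p = 0.876).

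The members did not share one profile. Likeness was measured over the 8 arrays as the root mean square distance between gene-centred log2 values. Gnat2 and Pde6h were 0.21 apart, and each was close to Camk1d, a calcium-dependent kinase gene (0.13 and 0.14). Prkcz (0.12) and Adipor1 (0.15) were also near Gnat2, and Hk2 (0.22) and Got1 (0.25) near Pde6h. The 2 opsins were far apart (1.79). The other genes nearest to Opn1mw were Rpe65 (0.29), Gng13, a G protein gamma subunit of ON bipolar cells (0.31), and Pcp2, a bipolar cell gene (0.34). Those nearest to Opn1sw were Pcmtd2 (0.14), Rbp3, the retinoid-binding protein of the matrix around photoreceptors (0.16), and Gnaz (0.18). Rbp2 (0.34), Alpl (0.40) and Abca8a (0.41) were nearest to Arr3, and Tifa (0.23), Lrrc26 (0.26) and Gbp3 (0.26) to Pde6c. This distance grows with the size of a gene's changes, so it compares patterns and sizes together.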

How the data were processed

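RNA from 8 mouse eye samples was prepared with Trizol and RNeasy, per the labels' protocols. The deposited values are 1 signal intensity per probe set and array on a linear scale, per the file headers and values. No software for this step is named in the labels or headers used here. On each array the 64 control probe sets had a median of 1, and no value lay below 0.01. Controls were left out. Of the other 22626 probe sets, 20380 carried 1 gene symbol, 691 several and 1555 none. Arrays were brought to a common trimmed mean, leaving off 2% at each end, since these means ran from 0.142 to 0.253. Tests used log2(scaled signal + 0.0211), the pseudocount being the 20th percentile, so a fold change understates low genes. Probe sets with a mean above the 30th percentile were kept (15838).

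A limma model (version 3.58.1, R 4.3.3, variance trend) with 4 group means and 4 residual degrees of freedom was fitted to all 8 arrays. A probe set was called where its p, adjusted by Benjamini-Hochberg over all those kept, was under 0.05. The model was tested on simulated data. A gene is represented by its probe set with the highest mean. Arrays were grouped by their titles.

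The members and lists were chosen with earlier results of these data known. The genes named are all members and their rod counterparts, the further cone genes tested, from each other list some of the 4 genes with the largest 1-month difference or wild-type age change, and the 3 genes nearest to each member. Xist, Eif2s3y and Gnb1 are named for what they show about the arrays. The shorter motif was added after the sequences were seen. Alternatives were other scalings, pseudocounts, filters, variance model, groups, replicate block, 1 probe set per gene and leaving out each array.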

Additional observations from a re-analysis of the deposited data

How the results depend on the processing

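The number of member genes called over age in wild type was 4 and ran from 3 to 5 when an array was left out, with 5 for the groups alone and 6 as deposited. In KPAW it was 4, and 2 with the groups of the contrast alone or without either 5-day KPAW array, the range without single arrays being 2 to 5. For KPAW against wild type at 1 month it was 0 and ran from 0 to 3, the 3 without KPAW II. At 5 days it stayed at 0, and for the interaction it ran from 0 to 1. Over the whole table the calls at 1 month (4) were 99 as deposited, 19 with the groups alone, 13 with a replicate block, 2 with the lowest pseudocount (5th percentile), 2 with the strictest filter (50th), 10 and 11 without a 5-day KPAW array, 562 without KPAW II and 0 without KPAW I or any wild-type array. The interaction (0) gave 36 as deposited, 1 and 11 without a 5-day KPAW array and 306 without KPAW II of 1 month. At 5 days 27 passed without KPAW II of that age. Age calls in wild type (2860) were 848 to 3690 and in KPAW (2259) 733 to 2173 without an array, 1343 as deposited and 604 with the groups alone; 1 probe set per gene gave 1863 and 1495.

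The values as deposited shift the median of all probe sets by 0.44 over age in wild type, -0.26 between KPAW and wild type at 1 month, 0.18 at 5 days and -0.45 in the interaction. Sign changes were as follows, none of them of a value called with all arrays. As deposited, the 1-month difference was -0.15 for Opn1mw, -0.22 for the second Arr3 probe set and -0.053 for Pde6c. The 5-day difference was then 0.15 for Opn1sw and 0.10 for Pde6c, and the interaction -0.15 for both Opn1mw and Pde6c. Leaving out arrays gave ranges at 1 month of -0.19 to 0.43 for Opn1mw, -0.91 to 0.24 and -0.47 to 0.54 for the 2 Arr3 probe sets and -0.54 to 0.92 for Pde6c. At 5 days they were -0.16 to 0.074 for Opn1sw, -0.38 to 0.15 for the second Arr3 probe set and -0.19 to 0.17 for Pde6c. Opn1sw over age in KPAW ran from -1.13 to 1.25. Interactions ran from -2.37 to 0.011 for Opn1sw, -0.82 to 0.25 for Gnat2, -0.12 to 0.50 for Opn1mw and -0.53 to 0.93 for Pde6c. The call of the dimmer Opn1sw probe set in wild type was lost with quantile normalization, median scaling, a pseudocount at the 5th percentile, a replicate block and when any wild-type or 5-day KPAW array was left out (adjusted p between 0.0501 and 0.174). Same-numbered arrays deviated together with correlations from -0.02 to 0.31, so the numerals were not taken to pair the arrays. The block gave 4 member genes over age in wild type, 5 in KPAW (Pde6c was added, adjusted p = 0.0498) and 0 at 1 month. Except where a value above shows it, the cause was not tested.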
